A study of Mus musculus with 70 samples.

Results

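The transcripts of 6 genes were followed: Kiss1, Kiss1r, Tac1, Tac2, Tacr1 and Tacr3, which encode the peptide precursors and the main brain receptors of the kisspeptin and tachykinin systems. They were taken by symbol from a table of 34677 gene names, and all 6 were present. RNA-Seq libraries were available for 24 groups: 18 regions of the adult brain in 57 libraries, 4 regions of the embryonic brain in 9 libraries and 2 embryonic stem cell lines in 4 libraries. All tissue was wild-type and untreated, and the group sizes ran from 1 to 4 libraries.

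The adult libraries came from male C57BL/6NTac mice at P56, and each pooled punches of 1 region from 3 or 4 mice, except for 1 nucleus accumbens library made from 1 mouse. The same mice gave several regions. The hypothalamic nuclei were the arcuate hypothalamic nucleus (ARH), the ventromedial hypothalamic nucleus (VMH), the paraventricular hypothalamic nucleus (PVH), the dorsomedial hypothalamic nucleus (DMH) and the lateral hypothalamic area (LHA). The cortex was represented by the anterior cingulate area (ACA), the frontal pole cortex (FRP) and the entorhinal area (ENT). The nucleus accumbens (ACB), the ventral tegmental area (VTA) and the hindbrain nuclei, namely the parabrachial nucleus (PB), the nucleus of the solitary tract (NTS) and the dorsal-vagal complex (DVC), were each sampled. The cerebellum was represented by the central lobule II (CENT2), the culmen lobules IV-V (CUL4-5), the uvula (UVU), the flocculus (FL) and the cerebellar nuclei (CBN). The embryonic libraries were E14.5 pools of 4 C57BL/6NTac embryos from the forebrain (F, 1 library), the midbrain (M), the hindbrain (H) and the terminal and peduncular hypothalamus (THy/PHy). The stem cells were 2 clones derived from C57BL/6 mice (mESC B6-1 and mESC B6-2), each in 2 libraries of 1 clone, collected in medium with LIF and the inhibitors CHIR-99021, CI-1040 and PD0325901. The study listed sample batches by region and not by library. No batch was shared among adult, embryonic and stem cell samples, so batch cannot be told apart from stage, or from cell type, in the comparisons between them.

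Kisspeptin, the product of Kiss1, acts through the Gq-coupled receptor Kiss1r and drives the neurons that secrete gonadotropin-releasing hormone, which makes the pathway the gate of puberty and fertility. In the arcuate nucleus of rodents, kisspeptin neurons also make neurokinin B, the product of Tac2, and dynorphin, the product of Pdyn, and are called KNDy neurons. Neurokinin B acts mainly through Tacr3. Tac1 encodes substance P and neurokinin A, which are made by direct pathway neurons of the striatum and by hypothalamic, parabrachial and visceral sensory neurons. Substance P acts mainly through Tacr1. All of these peptides are cut from longer precursors and carry an amide at the carboxyl end, and the tachykinins share an end of 5 amino acids that the receptors read.

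The coding sequences of the 4 peptides are given because they define what the 3 ligand genes share and where they differ. They were read from the GRCm38 genome at GENCODE transcripts Tac1-205, Tac2-201 and Kiss1-201, all on the plus strand. Capitals mark the 5 codons of the shared tachykinin end, or the last 2 codons of kisspeptin-10, and the 3 codons that follow hold the amide donor and the cleavage site.
substance P, Tac1, chr6:7556732-7556773: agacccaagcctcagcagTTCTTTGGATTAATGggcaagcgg
neurokinin A, Tac1, chr6:7559101-7559139: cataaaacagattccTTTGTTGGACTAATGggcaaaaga
neurokinin B, Tac2, chr10:127729116-127729154: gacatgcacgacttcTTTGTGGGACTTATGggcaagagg
kisspeptin-10, Kiss1, chr1:133329580-133329618: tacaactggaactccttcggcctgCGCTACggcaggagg
Over the 15 bases of the tachykinin end, neurokinin A and neurokinin B had 13 bases in common, substance P and neurokinin A had 12, and substance P and neurokinin B had 10. The 2 peptides of the same gene were therefore less alike over these bases than neurokinin A and the peptide of the other gene.

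Total estimated counts were 9074581 to 22229582 per library, with a median of 17016935. The mitochondrial share of TPM was 39.6% in 1 VTA library (replicate 1) and at most 22.6% elsewhere. Of 30 genes in 11 lists of region markers, 26 were highest in the region they mark. One exception was Ppp1r17, the single marker of the dorsomedial nucleus, which was highest in CUL4-5. The others were the paraventricular markers Sim1 (highest in DMH) and Avp (highest in ARH), and the striatal direct pathway marker Isl1 (highest in ARH). Of the 3 paraventricular markers, 1 was highest in PVH. Levels are in TPM, the share of all transcripts after adjustment for length, and are means over libraries with the SD. In bulk tissue, fewer cells of a type and less RNA per cell cannot be told apart.

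**Figure D1:**
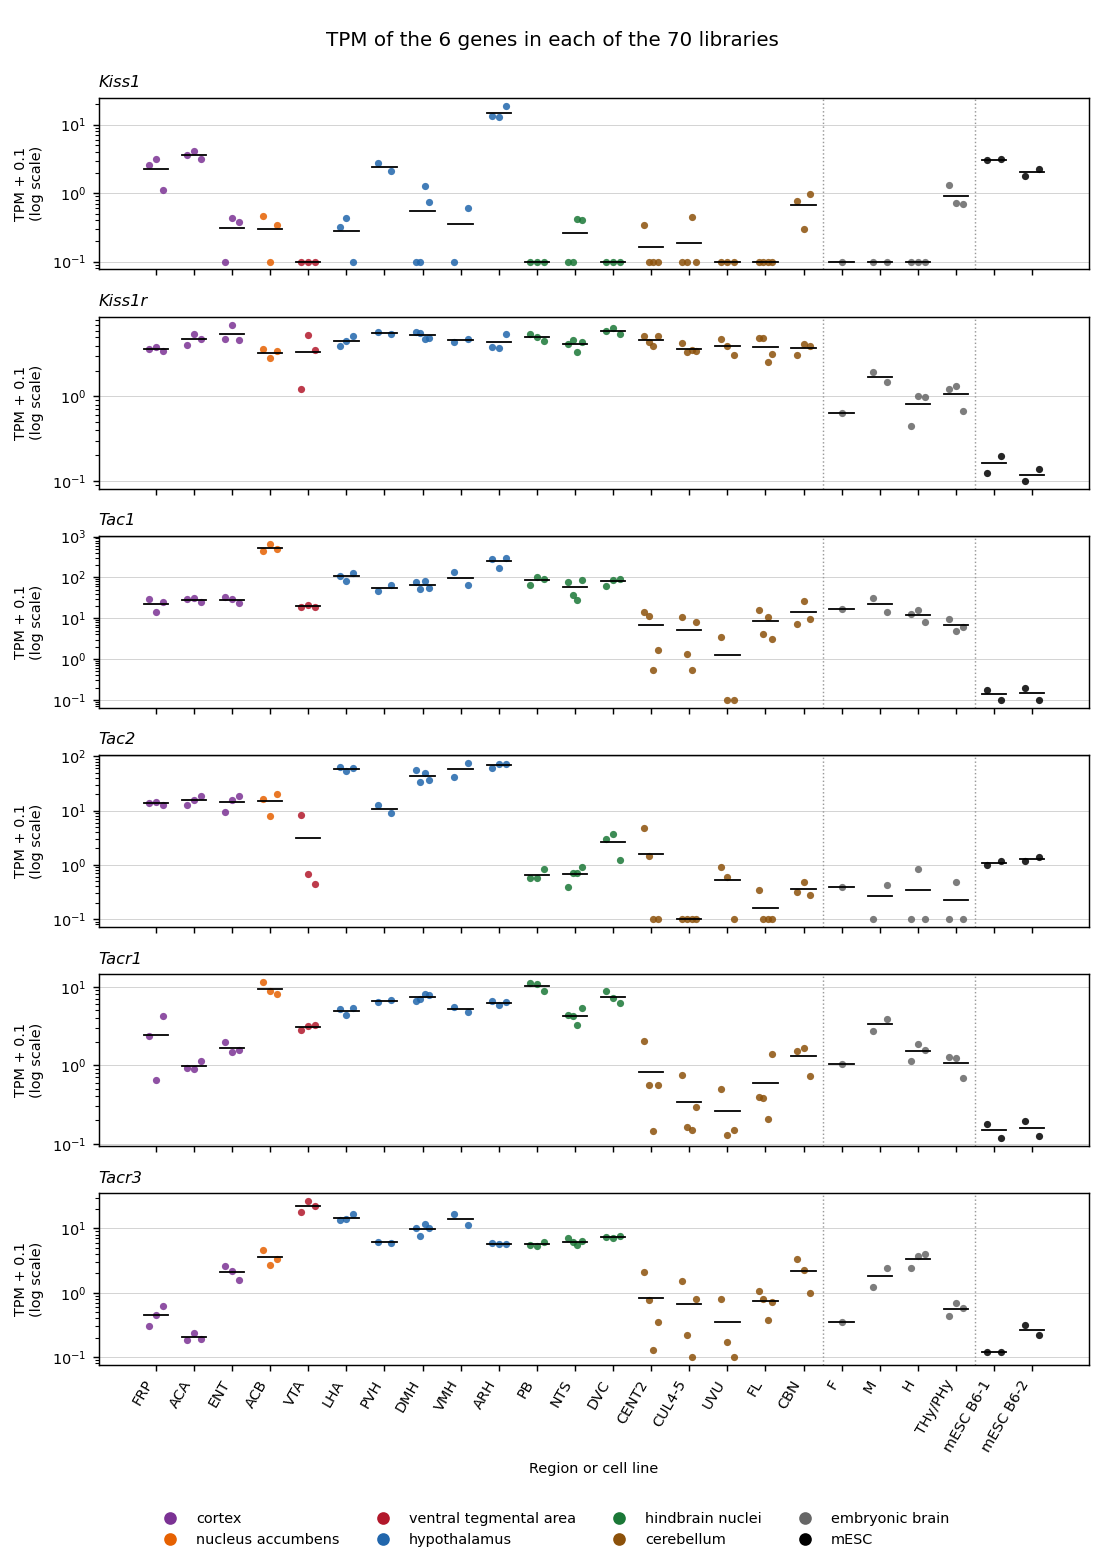
TPM of the 6 genes in every library, 1 panel per gene, with the 24 groups on the horizontal axis and TPM + 0.1 on a log scale on the vertical axis. Points are libraries, horizontal lines are group means and colours mark the part of the brain. Kiss1 peaked in ARH at 14.9 TPM, Tac1 in ACB at 533 TPM, Tac2 in ARH at 69.3 TPM, Tacr1 in PB at 10.2 TPM and Tacr3 in VTA at 22.2 TPM, whereas Kiss1r lay between 3.21 and 5.89 TPM in all 18 adult regions.

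Kiss1, the kisspeptin precursor, was highest in the arcuate nucleus. Its 3 ARH libraries held 13.3, 12.6 and 18.8 TPM, against 3.57, 4.00 and 3.02 TPM in ACA, the next region. The lowest ARH library lay above the highest library of any other group, and the ARH mean was 4.22 times the ACA mean. Kiss1 was also found in FRP at 2.48, 3.06 and 1.00 TPM and in PVH at 2.63 and 2.02 TPM. Both stem cell lines carried it, with 2.93 and 3.05 TPM in mESC B6-1 and 1.66 and 2.19 TPM in mESC B6-2. In the embryonic hypothalamus it stood at 1.21, 0.61 and 0.60 TPM.

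In the other hypothalamic nuclei Kiss1 was low and uneven. DMH held 0, 0, 1.16 and 0.64 TPM, VMH 0 and 0.50 TPM, and LHA 0.22, 0.33 and 0 TPM. Kiss1 was listed at 0 in every library of 8 groups (VTA, PB, DVC, UVU, FL, F, M and H). Of the 23 pairs of neighbours in the order of levels, 19 differed by less than the larger SD, so below ACA only a coarse order can be read. The counts behind these values were small. Summed over the transcripts of the row, they came to 59.0 to 83.8 per ARH library and 12.4 to 16.3 per ACA library, so that levels under about 1 TPM rested on few reads.

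The Kiss1 row was not made of transcripts named Kiss1 alone. In all 70 libraries it equalled, within 1e-06 TPM, the sum of 5 GENCODE transcripts: Kiss1-201, Kiss1-202, and the transcripts Gm28040-203, Gm28040-204 and Gm28040-205, which overlap Kiss1 on chromosome 1 and end in its last exon. The Gm28040 transcripts took 99.8% of these counts in ARH and 89.1% over all libraries. Reads cannot be split with confidence between transcripts that share exons, so the share of each is an estimate from 33-cycle single reads. In ARH, Gm28040-203 made 53.6% of the row (7.99 TPM) and Gm28040-205 made 43.0% (6.41 TPM). ACA differed in make-up, with 86.6% on Gm28040-203, 13.4% on Kiss1-202 and none on Gm28040-205. PVH was wholly on Gm28040-203, and mESC B6-1 held 83.0% on Gm28040-203 and 16.98% on Kiss1-201. Of the 99.3 counts of Gm28040-205 in all 70 libraries, 94.4 were in the 3 ARH libraries.

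**Figure D2:**
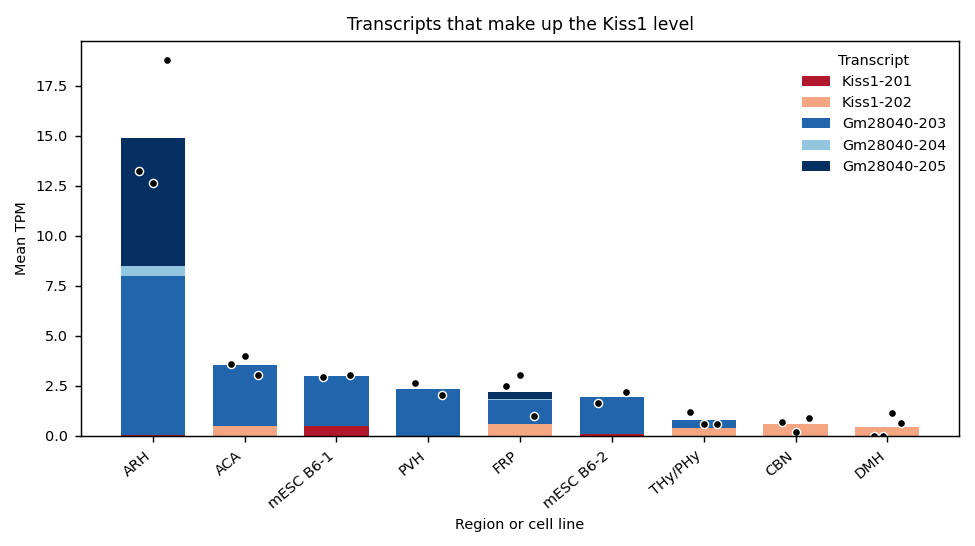
Mean TPM of the 5 transcripts that make up the Kiss1 row, stacked, for the groups with the highest Kiss1 level. The bars start at 0, each colour is 1 transcript and points are the totals of single libraries. ARH carried 6.41 TPM of Gm28040-205 on top of 7.99 TPM of Gm28040-203, whereas the other groups were mostly Gm28040-203 or Kiss1-202.

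The start of these transcripts also ties Kiss1 to its upstream neighbour Golt1a, a vesicle transport gene. Gm28040-203 and Gm28040-204 share their first exon with Golt1a, and Gm28040-205 starts within the Kiss1 locus at position 133323966. Golt1a stood at 2.83 ± 0.96 TPM (SD, n = 3) in ACA, 1.63 ± 1.44 TPM in FRP and 0.74 ± 0.98 TPM in ARH. In the comparison of the cerebral cortex with the other adult regions Golt1a was higher by 4.93 ± 0.49 (log2, SE), with an adjusted p of 2.54e-11. The 2 cortical regions with Kiss1 were thus also the ones with most Golt1a, and the part of shared reads in the cortical Kiss1 values was not tested.

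Kiss1r, the kisspeptin receptor, was spread almost evenly over the adult brain. Its mean was 5.89 ± 0.49 TPM (SD, n = 3) in DVC, the highest, and 3.21 ± 0.43 TPM (SD, n = 3) in ACB, the lowest, a ratio of 1.83. None of the 17 pairs of neighbours in this order differed by more than the larger SD. The ARH libraries held 3.78, 3.69 and 5.42 TPM, and the libraries of the other hypothalamic nuclei 3.86 to 5.72 TPM. The VTA libraries were the most uneven, at 1.14, 5.28 and 3.44 TPM, and the lowest was the one with the high mitochondrial share. The embryonic libraries were all lower than the adult group means, with 1.12, 1.23 and 0.57 TPM in THy/PHy, 1.37 and 1.87 TPM in M, and 0.35, 0.90 and 0.89 TPM in H. In the stem cells Kiss1r was at 0.0972 TPM or less.

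Tac1, the precursor of substance P and neurokinin A, was the most abundant of the 6 genes on this length-adjusted scale. Its 3 ACB libraries held 454, 660 and 484 TPM and its 3 ARH libraries 288, 174 and 306 TPM. These groups did not overlap, and no library outside them came above the lowest ARH library. LHA (81.9 to 130 TPM), VMH (65.8 and 133 TPM), PB (66.6 to 105 TPM) and DVC (63.1 to 91.6 TPM) followed, and their neighbours in the order were within the spread of the libraries. The 3 cortical regions lay at 22.6 to 28.4 TPM and VTA at 19.3 ± 1.33 TPM (SD, n = 3). The cerebellar regions lay at 1.13 to 14.03 TPM and the stem cells under 0.1 TPM.

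The Tac1 row mixed 2 main splice forms. Tac1-205, which holds all coding exons, took 57.9% of Tac1 TPM over the 70 libraries, and Tac1-203, which lacks the 45-base exon shown here, took 41.1%. Tac1-201, which lacks the 54-base exon that encodes neurokinin A, took 0.41%. The exons are printed because they set which longer or shorter forms of neurokinin A the precursor can give: the first encodes part of neuropeptide K, an extended form, and the second holds neurokinin A itself. Capitals mark the same 5 codons of the tachykinin end.
45-base exon, chr6:7557216-7557260: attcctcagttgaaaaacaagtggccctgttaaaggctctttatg
54-base exon, chr6:7559099-7559152: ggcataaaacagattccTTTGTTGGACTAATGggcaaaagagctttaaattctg
The share of Tac1-205 was 54.5 ± 3.0% (SD, n = 3) in PB, 56.02 ± 3.2% (n = 3) in ACB, 59.9 ± 2.7% (n = 3) in ARH and 68.4 ± 8.7% (n = 3) in FRP. The share thus moved little beside the level, which was 533 TPM in ACB and 22.6 TPM in FRP, and FRP had the widest spread of these groups.

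Tacr1, the substance P receptor, was highest in PB and ACB. The PB libraries held 11.1, 10.7 and 8.84 TPM and the ACB libraries 11.3, 8.70 and 7.91 TPM, so the ranges of these regions overlapped. DMH (7.29 ± 0.63 TPM, SD, n = 4), DVC (7.28 ± 1.32 TPM, n = 3), PVH (6.46 ± 0.29 TPM, n = 2) and ARH (6.14 ± 0.37 TPM, n = 3) came next, and the differences between neighbours among them were under the larger SD. The cortical levels were low and, in FRP, uneven, at 2.23, 0.55 and 4.19 TPM. ACA held 0.79 to 1.04 TPM. The means of the cerebellar regions ran from 0.16 TPM in UVU to 1.20 TPM in CBN, the latter above ACA.

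Tac2, the neurokinin B precursor, was a gene of the tuberal hypothalamus in these punches. ARH held 61.4, 73.3 and 73.2 TPM, LHA 62.9, 53.2 and 60.4 TPM, VMH 40.6 and 75.0 TPM, and DMH 33.3 to 55.8 TPM. The ranges of ARH and LHA overlapped and that of VMH spanned both. PVH was apart from the other nuclei, with 12.4 and 8.77 TPM. The cortical regions and ACB carried a middle level, with means of 13.6 to 15.4 TPM.

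Outside these regions Tac2 was low. VTA held 8.13, 0.58 and 0.34 TPM, with the high value in the library with the high mitochondrial share, and DVC held 1.10 to 3.64 TPM. All 4 CUL4-5 libraries were at 0. The stem cells stood at 0.90 and 1.09 TPM (mESC B6-1) and 1.08 and 1.30 TPM (mESC B6-2), above the 3 THy/PHy libraries at 0, 0.39 and 0 TPM.

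Tacr3, the neurokinin B receptor, peaked where its ligand gene was low. The VTA libraries held 18.1, 26.2 and 22.3 TPM, all above the highest library of any other group, 16.6 TPM in LHA. LHA (13.5, 13.8 and 16.6 TPM) and VMH (16.4 and 11.3 TPM) followed and overlapped. ARH, the region highest in Tac2, held 5.76, 5.61 and 5.57 TPM of the receptor and ranked 8 of 24. The lowest adult level was in ACA, at 0.0864, 0.136 and 0.0911 TPM, and the VTA mean was 212 times the ACA mean. ENT, another cortical region, held 1.47 to 2.47 TPM and did not overlap with ACA. Tacr3 had the clearest order of the 6 genes: 9 of its 23 pairs of neighbours were separated by more than the larger SD, against 3 for Kiss1r and Tacr1.

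The ligand and receptor patterns were set side by side as a description over group means, which share libraries and depth. Over the 24 groups, the Pearson r of log2(mean TPM + 0.5) was 0.91 for Tac1 and Tacr1, 0.49 for Tac2 and Tacr3, and -0.13 for Kiss1 and Kiss1r. Over the 18 adult regions it was 0.90, 0.41 and 0.09. Of 19820 genes compared, 5 had a higher r with Tac1 than Tacr1 had over the 24 groups, and 17 over the adult regions. Tacr1 and Tacr3, the 2 tachykinin receptors, had an r of 0.81 and 0.77. Kiss1 and Tac2, which KNDy neurons make together, had an r of 0.44 and 0.53. Tac2 in LHA, VMH and DMH was at 58.9, 57.8 and 43.8 TPM, where Kiss1 was at 0.181, 0.25 and 0.449 TPM.

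**Figure D3:**
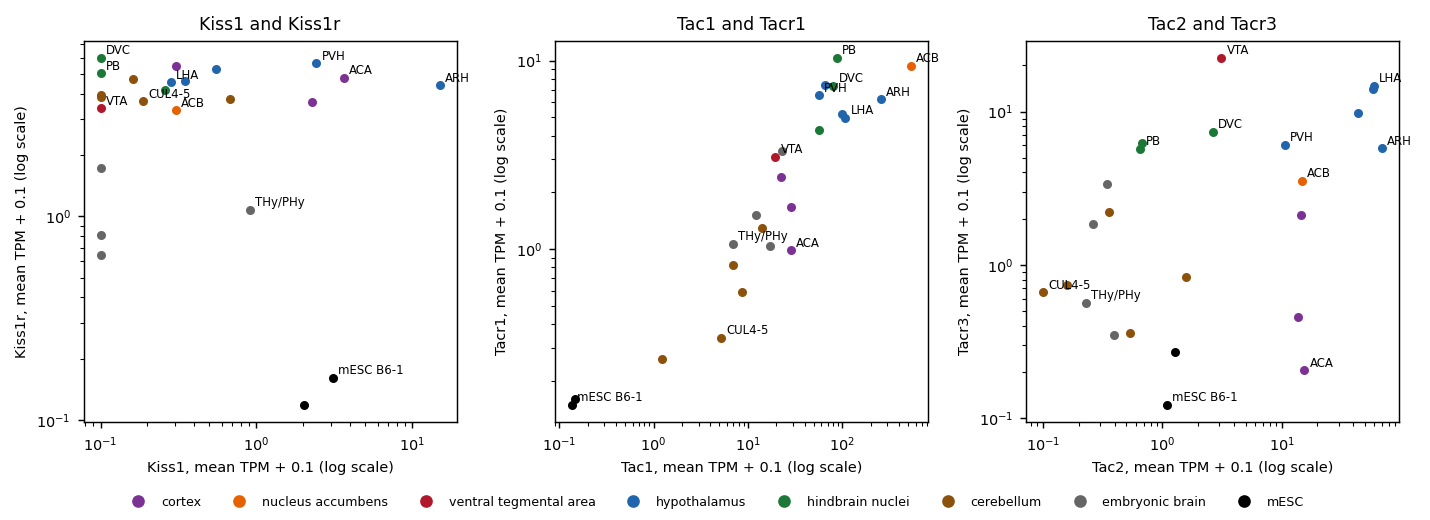
Mean level of each receptor gene against that of its ligand gene, 1 point per group, both axes in TPM + 0.1 on a log scale. The panels are Kiss1 and Kiss1r, Tac1 and Tacr1, and Tac2 and Tacr3, with r over the 24 groups, from log2(mean TPM + 0.5), of -0.13, 0.91 and 0.49. VTA stands apart in the Tac2 and Tacr3 panel, with 22.2 TPM of receptor and 3.02 TPM of ligand precursor.

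Within the hypothalamus, each nucleus was compared with the mean of the other 4. Tests used edgeR on gene counts for 5 genes and limma on log2(TPM + 0.5) for Kiss1, and a call needed an adjusted p below 0.05 together with a log2 difference above 1 in size. Fold changes are differences of mean log levels, with each region given equal weight. In ARH, 2 of the 6 genes were called, both higher, beside 6.90% of all genes in edgeR and 3.55% in limma. Kiss1 was higher by 3.89 ± 0.25 (log2, SE, adjusted p = 2.39e-17), and all 3 ARH libraries exceeded all 11 libraries of the other nuclei. Tac1 was higher by 1.63 ± 0.36 (adjusted p = 5.24e-04) and its libraries did not overlap either, but limma did not call it with a pseudocount of 0.1 (1.69, adjusted p = 0.153). Tac2 was at 69.3 TPM against 42.8 TPM and did not pass (0.91 ± 0.45, adjusted p = 0.154). Tacr3 was lower in all 3 ARH libraries than in any of the other 11 but did not pass (-0.95 ± 0.41, adjusted p = 0.0902). Summed TPM of 6 anterior pituitary genes was 76.1 to 117 in ARH and 1.89 to 18.7 in the other nuclei, and its part in the ARH values was not tested.

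The other nuclei gave 1 call each. In PVH Tac2 was lower (-2.42 ± 0.69 on the log2 scale, adjusted p = 0.0223), at 10.6 TPM against 57.4 TPM, beside 2.03% of genes called by edgeR and 1.30% by limma. Both PVH libraries were under all 12 others, and without either of them the call was lost (adjusted p = 0.102 and 0.212), as it was in limma with a pseudocount of 0.1 (adjusted p = 0.163). The single call in VMH, DMH and LHA was Kiss1, lower in each, at -1.64, -1.35 and -1.74 on the log2 scale (adjusted p = 2.85e-04, 1.64e-04 and 1.56e-06). The comparison mean of each of these nuclei includes ARH, and in every case their libraries overlapped with those of the other nuclei. The VMH and DMH calls were lost with a pseudocount of 0.1 (adjusted p = 0.0599 and 0.0605). The shares of genes called were 1.47% in edgeR and 0.795% in limma for VMH, 0.601% and 0.385% for DMH, and 5.05% and 2.82% for LHA. Without 1 VMH library (replicate 1) the VMH call was lost (-1.14, adjusted p = 0.18). Tacr3 in LHA missed the threshold (0.93 ± 0.36, adjusted p = 0.0643), at 14.6 TPM against 8.80 TPM.

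Set against the 13 other adult regions, the 5 hypothalamic nuclei were higher in 5 of the 6 genes, beside 8.84% of genes called in edgeR and 3.95% in limma. Tac2 showed the largest difference of the 6, at 48.1 TPM against 5.16 TPM and 4.80 ± 0.27 on the log2 scale (adjusted p = 6.27e-21). That fold includes CUL4-5, where all counts were 0, and depends on the count edgeR adds. limma gave 4.11 ± 0.21. Tacr3 (2.51 ± 0.19), Tac1 (2.08 ± 0.19), Tacr1 (1.78 ± 0.20) and Kiss1 (1.20 ± 0.12) were also higher, with adjusted p-values of 9.34e-17, 1.33e-13, 4.44e-11 and 8.96e-12. For Kiss1 only ARH and PVH lay above the 0.539 TPM mean of the other regions, and with a pseudocount of 1 its difference (0.93) was under the size threshold. Kiss1r differed by 0.26 ± 0.08 (adjusted p = 0.00443), under the size threshold. The ranges of the 14 hypothalamic and 43 other libraries overlapped for each gene, and ACB was rich in Tac1 and Tacr1, VTA in Tacr3 and the cortex in Kiss1 and Tac2.

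**Figure D4:**
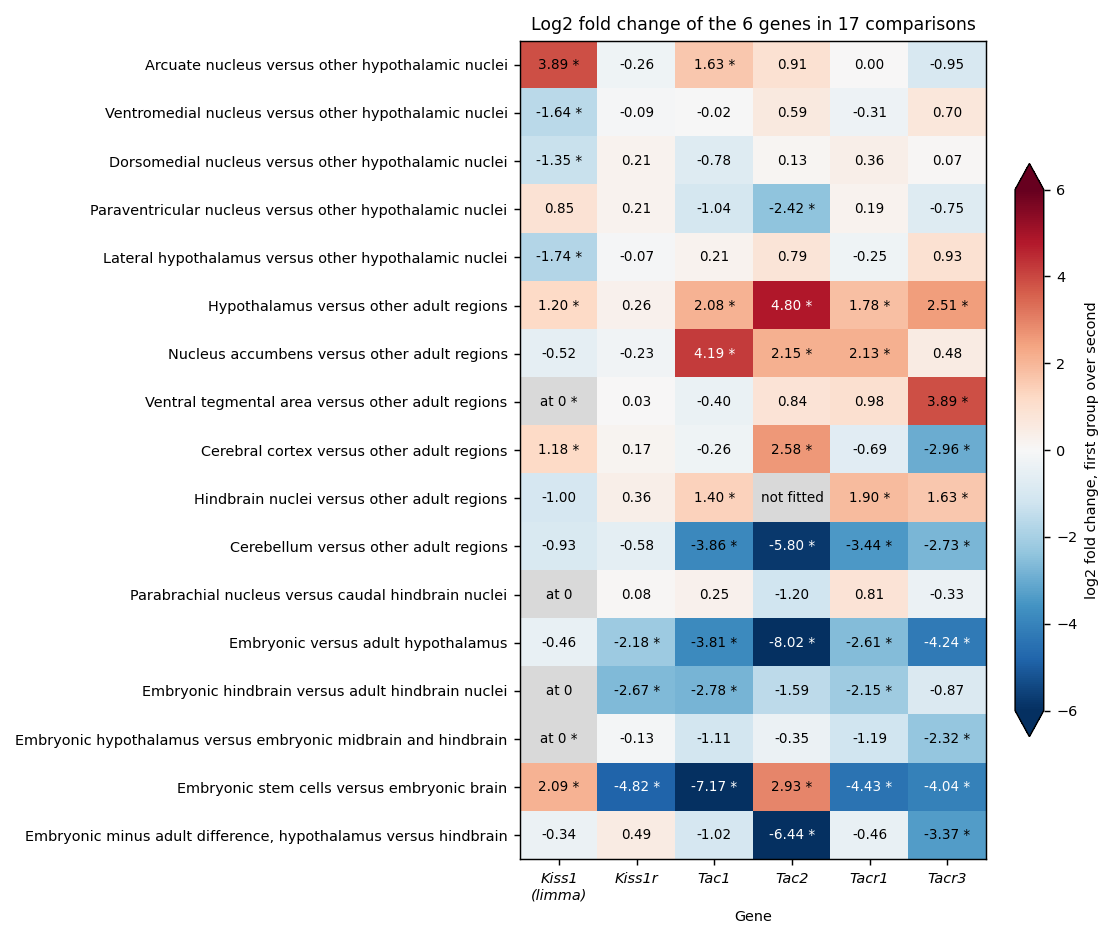
Log2 fold change of the 6 genes in the 17 comparisons, first group over second, as a colour scale with the value in each cell. Kiss1 values are from limma and the others from edgeR. An asterisk marks a call (adjusted p below 0.05 with a log2 difference above 1 in size), grey cells marked "at 0" have a group listed at 0 in every library and give no fold, and 1 grey cell could not be fitted. Kiss1r was called only in 3 comparisons, those of embryonic with adult tissue and of stem cells with embryonic brain.

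In ACB, the striatal region, 3 genes were called against the 17 other adult regions, all higher, beside 12.8% of genes in edgeR and 6.87% in limma. Tac1 was higher by 4.19 ± 0.25 (adjusted p = 1.34e-20), with 533 TPM against 55.5 TPM, and every ACB library exceeded all 54 others. Tacr1 was higher by 2.13 ± 0.31 (adjusted p = 9.18e-08), at 9.31 TPM against 3.65 TPM, with overlap. Tac2 was called higher by 2.15 ± 0.42 (adjusted p = 3.41e-05), and by 1.54 ± 0.40 in limma, but its arithmetic mean, 14.7 TPM, was below the 17.2 TPM of the other regions. The fold is a difference of mean logs, to which regions near 0 contribute most. Direct pathway markers (Drd1, Pdyn, Chrm4 and Isl1) summed to 394 to 518 TPM in ACB, above the 164 to 171 TPM of ARH, the other region rich in Tac1. Of these 4 genes, 3 were highest in ACB, and Isl1 was highest in ARH. Pdyn is also in the list of the gonadotropin axis and was called higher in ARH than in the other hypothalamic nuclei.

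In VTA, 2 genes were called, beside 10.5% of genes in edgeR and 8.30% in limma. Tacr3 was higher by 3.89 ± 0.25 (adjusted p = 2.38e-18), at 22.2 TPM against 4.65 TPM, and every VTA library exceeded all 54 others. Without VTA replicate 1 the difference was 3.67 (adjusted p = 1.09e-14). In limma it was 2.85 ± 0.27, where the median over all genes in this comparison was -0.24. The dopamine neuron markers Th, Slc6a3 and Slc18a2 summed to 496 TPM in replicate 1, the library with the high mitochondrial share, and to 1444 and 1641 TPM in the other VTA libraries, while Tacr3 was 18.1 TPM in that library. Kiss1, listed at 0 in all 3 VTA libraries, was the other call, lower, and no fold is given. The call lay close to the size threshold and was kept in 38 of 57 fits with 1 library left out. It was lost with a pseudocount of 1, with a replicate block and with counts summed over the transcripts of the row. Tac2 had no steady direction, with 0.84 ± 0.45 in edgeR (adjusted p = 0.139), -2.46 in edgeR without replicate 1 (not called) and -1.46 ± 0.40 in limma (adjusted p = 0.00269). The comparison includes CUL4-5, where all Tac2 counts were 0. Tacr1 differed by 0.98 ± 0.36 (adjusted p = 0.0239) in edgeR and 0.18 in limma, and was not called.

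The cerebral cortex differed from the 15 other adult regions in 3 genes, beside 16.1% of genes in edgeR and 8.27% in limma. Tacr3 was lower (-2.96 ± 0.33 on the log2 scale, adjusted p = 4.61e-11), at 0.827 TPM against 6.59 TPM. Kiss1 was higher by 1.18 ± 0.14 (adjusted p = 4.12e-10), at 1.97 TPM against 1.28 TPM, and ENT, at 0.21 TPM, did not share in it. With a pseudocount of 1 the Kiss1 difference (0.82) was under the size threshold. Tac2 was called higher by 2.58 ± 0.30 (adjusted p = 1.92e-10), and by 1.81 ± 0.25 in limma. As in ACB, the arithmetic means ran the other way, 14.47 TPM in the cortex against 17.6 TPM. Tacr1 was at 1.59 TPM against 4.44 TPM and missed the size threshold (-0.69 ± 0.27, adjusted p = 0.024).

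In the 3 hindbrain nuclei, 3 genes were called higher than in the 15 other adult regions, beside 7.84% of genes in edgeR and 3.30% in limma. Tacr1 differed by 1.90 ± 0.21 (adjusted p = 3.95e-11), Tacr3 by 1.63 ± 0.21 (adjusted p = 1.71e-09) and Tac1 by 1.40 ± 0.21 (adjusted p = 1.36e-07). In limma with a pseudocount of 1, Tacr3 (0.91) was under the size threshold. The TPM means were 7.23 against 3.32 for Tacr1 and 6.35 against 5.48 for Tacr3. For Tac1 they were 74.9 against 83.4, so the call again rests on mean logs, with ACB and ARH raising the arithmetic mean of the other regions. The edgeR test of Tac2 could not be fitted. limma gave a lower Tac2 level (-2.18 ± 0.24 on the log2 scale, adjusted p = 1.12e-10), at 1.23 TPM against 20.2 TPM.

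Between PB and the 2 caudal nuclei, NTS and DVC, 0 of the 6 genes were called, beside 2.30% of genes in edgeR and 1.20% in limma. Tacr1 was higher in all 3 PB libraries than in all 7 NTS and DVC libraries, at 10.2 TPM against 5.73 TPM, but did not pass (0.81 ± 0.42, adjusted p = 0.301). Tac1 differed by 0.25 ± 0.42 (adjusted p = 0.857).

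The cerebellum was lower than the 13 other adult regions in all 4 tachykinin genes, beside 15.9% of genes called in edgeR and 7.95% in limma. Tac1 stood at 7.09 TPM against 111 TPM (-3.86 ± 0.25, adjusted p = 1.78e-19), Tacr1 at 0.563 against 5.28 TPM (-3.44 ± 0.25, adjusted p = 1.36e-17) and Tacr3 at 0.858 against 7.46 TPM (-2.73 ± 0.26, adjusted p = 1.8e-13). Tac2 stood at 0.447 against 23.5 TPM, with -5.80 ± 0.46 in edgeR and -3.88 ± 0.20 in limma. Kiss1r was lower (-0.58 on the log2 scale, adjusted p = 2.91e-09), under the size threshold.

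The low cerebellar levels were uneven between libraries. CENT2 held 14.1, 11.03, 0.43 and 1.54 TPM of Tac1, and 4.59, 1.34, 0 and 0 TPM of Tac2. In CENT2 and UVU, the library highest in Tac1 was also highest in the other 3 tachykinin genes. In FL and CBN it was highest in 2 of the other 3, and in CUL4-5, where Tac2 was at 0 throughout, in both receptors. The CENT2 library with most Tac1 (replicate 1) had 2354 TPM of 3 cerebellar markers, against 3266 to 3458 TPM in the other CENT2 libraries, and 35.3 TPM of dopamine neuron markers against 4.36 to 18.6 TPM. In CUL4-5 too, the library with most Tac1 was lowest in the cerebellar markers (3326 TPM). In UVU (2916 TPM) and FL (2477 TPM) that library was the highest in them, and in CBN (578 TPM) it lay in between. Hindbrain markers were highest in the library with most Tac1 in CENT2 (9.27 TPM), UVU (7.17 TPM), FL (42.1 TPM) and CBN (143 TPM). In CUL4-5 they were not (0.634 TPM, against 2.36 TPM in replicate 4). Dopamine neuron markers were highest in that library in each region but FL. Choroid plexus markers were so in CENT2, CUL4-5 and UVU (2046 TPM), but not in FL or CBN. The part of neighbouring tissue in these values was not tested.

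The embryonic hypothalamus was lower than the adult nuclei in 5 of the 6 genes, beside 38.2% of genes called in edgeR and 24% in limma. For all 5, every THy/PHy library was under all 14 adult libraries. Tac2 was at 0.129 TPM against 48.1 TPM (-8.02 ± 0.98, adjusted p = 4.99e-10). As 2 of the 3 THy/PHy libraries were at 0, the fold depends on the count edgeR adds: it was -10.6 without replicate 2, the only one above 0, and -6.06 ± 0.43 in limma. The log2 differences of Tacr3, Tac1, Tacr1 and Kiss1r were -4.24, -3.81, -2.61 and -2.18, with adjusted p-values of 2.02e-09, 2.13e-08, 1.27e-05 and 4.24e-14. Kiss1 did not pass (-0.46 ± 0.25, adjusted p = 0.129), and its THy/PHy libraries lay within the adult range of 0 to 18.8 TPM.

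The embryonic hindbrain was lower than the adult hindbrain nuclei in 3 genes, beside 44.0% of genes called in edgeR and 28.1% in limma. The log2 differences of Tac1, Kiss1r and Tacr1 were -2.78, -2.67 and -2.15 (adjusted p = 5.36e-06, 3.9e-16 and 1.48e-04), and for each of them every H library was under all 10 adult libraries. Tacr3 was at 2.29, 3.60 and 3.86 TPM in H against a mean of 6.35 TPM and did not pass (-0.87 ± 0.42, adjusted p = 0.0636). Tac2 was not called by edgeR (-1.59 ± 1.12, adjusted p = 0.207) but was called lower by limma (-1.11 ± 0.45, adjusted p = 0.0334). edgeR also called it without H replicate 2 (adjusted p = 0.045), which left that group at 0.

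The stage difference was then compared between the hypothalamus and the hindbrain in an interaction term, which called 2 of the 6 genes, beside 9.84% of genes in edgeR and 6.23% in limma. For Tacr3 the embryonic minus adult difference was lower in the hypothalamus (-3.37 ± 0.65 on the log2 scale, adjusted p = 8.65e-05). For Tac2 it was lower too (-6.44 ± 2.16, adjusted p = 0.0199). Tac2 was near 0 in both embryonic groups, at 0.129 TPM in THy/PHy and 0.248 TPM in H. Its term therefore rests mainly on the adult levels, 48.1 TPM in the hypothalamus and 0.554 TPM (PB) to 2.54 TPM (DVC) in the hindbrain nuclei. limma called Tac2 as well (-4.95 ± 0.62, adjusted p = 6.13e-08). Only 1 embryonic hindbrain library (replicate 2) had a Tac2 level above 0. Without it that group was wholly at 0. The edgeR value was then -2.77 and was not called, but with a group at 0 that fit cannot decide the question. For Kiss1r, Tac1, Tacr1 and Kiss1 the interaction did not pass (adjusted p = 0.193, 0.277, 0.662 and 0.61).

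At E14.5, the hypothalamus differed from the midbrain and hindbrain in 2 genes, beside 3.18% of genes called in edgeR and 1.91% in limma. Kiss1 was at 0.60 to 1.21 TPM in all 3 THy/PHy libraries and listed at 0 in all 5 M and H libraries (limma adjusted p = 0.001, no fold given), and was not called with a pseudocount of 1. Tacr3 was lower in THy/PHy, at 0.33, 0.59 and 0.47 TPM against a mean of 2.49 TPM (-2.32 ± 0.57, adjusted p = 0.0042). The receptor gene that was highest in adult LHA and VMH among the hypothalamic nuclei was thus lower in the embryonic hypothalamus than in the embryonic midbrain and hindbrain.

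The stem cells differed from the embryonic brain regions M, H and THy/PHy in all 6 genes, beside 58.0% of genes called in edgeR and 38.4% in limma. Kiss1 was higher, at 2.46 TPM against 0.269 TPM (2.09 ± 0.24, adjusted p = 4.32e-11). Kiss1 was at 0 in every M and H library, so the size of this fold depends on the pseudocount. Tac2 was higher too, at 1.09 TPM against 0.18 TPM (2.93 ± 0.94 in edgeR, adjusted p = 0.00445, and 1.31 ± 0.42 in limma, or 0.85 with a pseudocount of 1, under the size threshold). Tac1, Kiss1r, Tacr1 and Tacr3 were lower, at -7.17, -4.82, -4.43 and -4.04 on the log2 scale, with adjusted p-values of 1.34e-07, 2.97e-19, 7.63e-08 and 1.48e-06. The stem cell means of these 4 were under 0.1 TPM, so the folds depend on the count edgeR adds, and limma gave -4.51, -1.51, -1.96 and -1.74, with Kiss1r under the size threshold at a pseudocount of 1 (-0.98). In each of the 6 genes the 4 stem cell libraries and the 8 brain libraries did not overlap.

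The other genes of the tachykinin family were almost silent. Tac4, which encodes hemokinin, reached at most 0.713 TPM, in mESC B6-2, and Tacr2, the neurokinin A receptor, at most 0.173 TPM, in DVC. Neither passed the filter on low counts, so 0 of 2 were tested.

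Of 10 genes of the KNDy and gonadotropin axis, 9 were tested, all but Gnrhr. In ARH, 4 were higher than in the other nuclei and none lower, beside 6.90% of all genes called: Pdyn, the dynorphin precursor (1.66 ± 0.30, adjusted p = 2.46e-05), the oestrogen receptor Esr1 (1.93 ± 0.21, adjusted p = 4.37e-10), Gnrh1, the precursor of gonadotropin-releasing hormone (2.05 ± 0.49, adjusted p = 0.00124), and the prolactin receptor Prlr (1.14 ± 0.41, adjusted p = 0.0342). The median log2 difference of the 9 was 0.64, against 0.02 over all genes. In the hypothalamus as a whole 7 of the 9 were higher than in the other adult regions, beside 8.84% of all genes called, with a median of 1.99 against 0.00, among them Pdyn (3.28 ± 0.17) and its receptor Oprk1 (2.45 ± 0.14). In the embryonic hypothalamus 7 were lower than in the adult, beside 38.2% of all genes called, with a median of -3.66 against 0.00, and Nhlh2, a transcription factor of developing neurons, was higher by 3.21 ± 0.18. In ACB, where 12.8% of all genes were called, Pdyn (5.22 ± 0.20) and Oprk1 (2.99 ± 0.21) were higher and Prlr and Nhlh2 lower.

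Kisspeptin belongs to the peptides that end in arginine and an aromatic amide, and 8 genes of related peptides and receptors were tested. In ARH 3 were higher than in the other nuclei and none lower, again beside 6.90% of all genes: Prlh, the prolactin-releasing peptide precursor (6.38 ± 0.89, adjusted p = 6.17e-04), Qrfp (2.72 ± 0.49, adjusted p = 2.2e-05) and Npvf (1.77 ± 0.44, adjusted p = 0.0027), with a median of 0.79 over the 8. Npvf was also higher in VMH (4.92 ± 0.41) and DMH (3.38 ± 0.39), so it did not share the pattern of Kiss1. In the hypothalamus as a whole 5 of the 8 were higher and none lower, beside 8.84% of all genes, with a median of 2.22.

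Of 5 genes that process or break down such peptides, 1 was higher in the hypothalamus than in the other adult regions, the amidating enzyme Pam (1.31 ± 0.06, adjusted p = 1.18e-23), beside 8.84% of all genes called. In the embryonic hypothalamus 4 were lower than in the adult, beside 38.2% of all genes called: Pcsk1 (-3.53), Pcsk2 (-2.94), Pam (-2.10) and Cpe (-2.06 on the log2 scale), and the median was -2.10 against 0.00 over all genes. In the cerebellum 4 were lower than in the other adult regions, beside 15.9% of all genes called, with a median of -1.19, and Cpe was the one not called. Of 6 genes of Gq signalling, through which Kiss1r, Tacr1 and Tacr3 act, none was called in ARH against the other nuclei. In ACB, Plcb1 (1.49 ± 0.08) and Plcb2 (1.91 ± 0.18) were higher and Plcb4 was lower (-2.60). In the embryonic hypothalamus 3 of the 6 were lower (Plcb1, Plcb2 and Plcb4), with a median of -0.74, and 38.2% of all genes were called there.

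The genes whose levels over the 24 groups were most like those of each member were found by Pearson r of log2(mean TPM + 0.5) among 19819 genes, given as a description. For Tacr1 they were the opioid receptor gene Oprm1 (r = 0.94, and 0.96 over the 18 adult regions), the receptor kinase gene Alk (0.93 and 0.91) and Tac1 (0.91 and 0.90). For Tac1 they were Nsun7 (0.94 and 0.91), Lor (0.92 and 0.88) and 5330417C22Rik (0.92 and 0.86). For Tac2 they were Krt77, the neuropeptide S receptor gene Npsr1 and Grhl1, with an r of 0.89, 0.89 and 0.87, and for Tacr3 C1ql2, Gm7361 and Ccer2, with 0.87, 0.87 and 0.86.

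Kiss1 and Kiss1r had weaker or less telling matches. For Kiss1 the r was 0.79 with DXBay18, 0.74 with Msln and 0.71 with Irf1, all of which were highest in mESC B6-1 and not in ARH. With a pseudocount of 0.1 the matches of Kiss1 were DXBay18 (0.78), its upstream neighbour Golt1a (0.75, highest in ACA) and Gm19961 (0.74). For Kiss1r the r was 0.99 with Snrpn, 0.98 with Lnx1 and 0.98 with Snurf over the 24 groups but 0.68, 0.58 and 0.58 over the 18 adult regions. The high values thus came with the gap between adult tissue, embryonic tissue and stem cells.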

How the data were processed

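RNA-Seq data from 70 libraries of mouse brain punches and stem cells were analysed. The authors sequenced 33-cycle single reads (CASAVA 1.8.2), assigned them with Kallisto to GRCm38 transcripts from Ensembl, and deposited estimated counts and TPM per transcript and TPM per gene. Of 109282 transcripts, 98.8% were matched to a gene of GENCODE M21, and the unmatched held 0.418% to 0.767% of counts per library. Expected counts, as the authors deposited them, were summed per gene and rounded. Levels are the deposited gene TPM.

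Libraries were grouped by their labels. All 24 groups entered 1 edgeR 4.0.16 quasi-likelihood model (TMM, filterByExpr, R 4.3.3), and comparisons were contrasts of equally weighted group means. P-values were adjusted by Benjamini-Hochberg over all genes, 19980 of them in edgeR. The SE is the log2 fold change divided by the root of the F statistic. Counts of transcripts named Kiss1 miss most of its gene TPM, so for Kiss1 limma 3.58.1 (trend) on log2(TPM + 0.5) was used, on genes with a mean of at least 0.1 TPM in a group. Libraries of a group are pools, and where nothing shows separate mice the p-values measure only the spread between these libraries. That spread is pooled over all 24 groups. For Kiss1, 8 of them were at 0 in every library and add none, so its SE may be too small for groups that carry Kiss1. The 6 genes and the gene lists were chosen with earlier results of these data known. Genes outside the 6 were named by list membership and, for likeness, as the 3 with the highest r. Alternatives were RLE size factors, DESeq2 1.42.0, no filter, limma with pseudocounts of 0.1, 0.5 and 1, brain libraries only, a replicate block and leaving out each library. For the last, trended dispersions were kept from the full model, and adjustment was made among its p-values. The fits were tried on simulated counts for the ARH comparison only, with the same dispersion for every gene. That trial does not test groups at 0 or the interaction. Coding stretches were read from GRCm38.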

Additional observations from a re-analysis of the deposited data

Results flagged for a closer look

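In regions with 4 libraries, 28 sets of values of the 6 genes were examined for a library far from the rest, and 4 were found. Kiss1 was at 0.247 TPM in CENT2 replicate 1 and at 0.35 TPM in CUL4-5 replicate 3, with the other 3 libraries of each region at 0. Tac2 was at 0.242 TPM in FL replicate 1 and at 0 in the others. Tacr1 was at 1.29 TPM in FL replicate 4, against 0.104 to 0.294 TPM in the others. Chance marks about 1 in 20 sets of normally spread values. In the Kiss1 and Tac2 sets the other libraries were all at 0, so any level above 0 is flagged and that rate does not apply. These levels rest on few reads.

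The embryonic minus adult difference was not the same in the hypothalamus and the hindbrain for 2 genes, by the interaction term in edgeR. For Tacr3 the hypothalamic minus hindbrain value was -3.37 ± 0.65 (log2, SE, adjusted p = 8.65e-05). For Tac2 it was -6.44 ± 2.16 (adjusted p = 0.0199), and -4.95 ± 0.62 in limma (adjusted p = 6.13e-08). Tac2 was near 0 in both embryonic groups, so its value rests mainly on the adult levels. Without H replicate 2, which leaves that group wholly at 0, edgeR gave -2.77 (not called), and that fit cannot decide the question. Stage and sample batch cannot be told apart.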

How the results depend on the processing

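Of 3012 tests of the 6 genes with 1 library left out, 2966 kept their side of the threshold, 23 gained and 23 lost the call. A change of direction was counted only where either fit called the gene, so uncalled differences that changed sign are among those kept. Of 861 tests under other settings, 829 kept their side of the threshold in the same sense, 13 gained and 16 lost the call. In these settings 3 reversed, all Tac2 in VTA, where limma gave -1.46 with a pseudocount of 0.5, -1.36 with 1 and -1.46 with no filter. The number of the 6 genes called, 2 in ARH, was 1 in limma with a pseudocount of 0.1 and 1 with no filter, where Tac1 was lost. For VMH, DMH and PVH the 1 call became 0 in limma with 0.1. Kiss1 counts summed over its 5 transcripts, an alternative chosen after seeing the data, gave 0 calls in VMH, 0 in DMH and 1 in VTA, where there had been 2. With a pseudocount of 0.1 the hindbrain nuclei had 5 calls in place of 3, and with 1 the embryonic hypothalamus had 1 against M and H in place of 2. Leaving out 1 library gave 0 to 1 calls in VMH, 0 to 1 in PVH, 1 to 4 in VTA and 1 to 2 in the interaction. Kiss1 in VTA, close to the size threshold, lost its call without any of 19 libraries, and Kiss1 in the hindbrain nuclei gained one without any of 13. The cause of these changes was not tested.

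Deviations from the group means had a median correlation of 0.0097 for libraries with the same replicate number (669 pairs, 65 over 0.1). For different numbers it was -0.0026 (1603 pairs, 99 over 0.1). Medians near 0 cannot show whether the numbers pair some of the libraries. With the number as a replicate block, LHA had 2 calls in place of 1, as Tacr3 passed (1.01, adjusted p = 0.0382). In VTA Kiss1 lost its call and Tacr1 gained one (1.02, adjusted p = 0.0143), and in the hindbrain nuclei Kiss1 gained one (-1.003). The block changed no other call of the 6 genes.

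Over all genes, the calls in the hypothalamus against other adult regions were 1767 in edgeR and 1059 in limma, and in the hindbrain nuclei 1566 and 883. limma with a pseudocount of 1 called 742 genes in ARH (1378 in edgeR), 171 in VMH (294), 77 in DMH (120), 579 in LHA (1009), 840 in the hypothalamus, 1504 in ACB (2555), 1812 in the cortex (3221), 693 in the hindbrain nuclei, 1781 in the cerebellum (3177), 255 in PB (460) and 409 in the embryonic hypothalamus against M and H (635). In VTA edgeR called 1376 genes higher and 729 lower, and limma 338 and 1884, or 3182 in all with a pseudocount of 0.1. The split also moved in DMH (89 higher and 31 lower in edgeR, 59 and 44 in limma), LHA (463 and 546, 260 and 496), the interaction (692 and 1274, 770 and 898) and VMH with DESeq2 (158 and 136, 130 and 177). RLE size factors moved the median of all genes from -0.02 to 0.11 in the stem cell comparison. The region with the highest level was the same for 5 of 6 genes in CPM, where Kiss1r moved from DVC to DMH, and for 5 of 6 without VMH replicate 1, where Tac2 moved from ARH to VMH. Of the 18 most alike genes, 12 stayed with a pseudocount of 0.1. Depth limits Kiss1 and the low Tac2 levels, since 1 count could decide whether a library was at 0.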
